A study of Sus scrofa with 12 samples.

Results

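The regions described here are the merged m6A peaks that lie wholly within the 5' untranslated region (5' UTR) of a messenger RNA in IPEC-J2, a line of epithelial cells that came from the small intestine of the pig. These peaks were chosen from the authors' annotation alone, as peaks listed under 1 gene that is not a long noncoding RNA, spanning at most 10000 bp and annotated to the 5' UTR and to no other part of the transcript. This rule found 1394 of 25055 peaks (5.56%), on 1138 genes. Peaks and their counts come from MeRIP-seq, in which RNA fragments of about 100 nt bound by an antibody against N6-methyladenosine (m6A) and fragments that were not selected are sequenced side by side. Wild-type cells grew for 24 h in serum-containing medium with 25 µM OAA, a compound that the labels give by this abbreviation, or with 0 µM OAA (CON). There were 3 replicates per treatment, numbered in the titles and called cultures below, and each had a library labelled input and a library labelled IP, which gave 4 groups of 3 libraries, OAA labelled input, OAA labelled IP, CON labelled input and CON labelled IP. Whether these were grown apart is not stated, so the spread behind the p-values may be technical.

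Messenger RNA starts with a cap, and the small ribosomal subunit scans the 5' UTR behind it until it meets a start codon. m6A is the most common internal modification of mRNA and is best known near stop codons and in long internal exons, while the antibody also binds m6Am, a related base that stands at the first transcribed position beside the cap. Methylation in the 5' UTR has been linked in mouse and human cells to translation that needs less of the cap-binding complex, with the initiation factor eIF3 as a proposed reader.

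The quantity followed below is the peak ratio, the log2 of the normalised reads of a peak in the libraries labelled input over those in the libraries labelled IP. This is the direction of the log2 ratios in the authors' deposited table, with which the ratios of the 5' UTR peaks correlated across peaks at r = 0.975 in OAA and 0.977 in CON, points that share the same libraries. Only the titles say which libraries hold the antibody-bound part, since the library codes name neither part. More reads lay in labelled input in 98.4% of the 5' UTR peaks in OAA and 99.8% in CON. Labelled input was also the deeper label. The deposited log2 ratios of these peaks had medians of 4.73 in OAA and 4.58 in CON, against 4.04 and 3.97 over all peaks. Whether the titles are exchanged was not tested. A high ratio stands for little antibody-bound RNA if the titles hold, and for much if they are exchanged. Scaling by the trimmed mean of M values (TMM) sets the typical peak near 0, so a ratio tells where a peak stands among the other peaks and is not an absolute degree of methylation. All of the peaks had been called by the authors on these same libraries.

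Most of the 5' UTR peaks were short and lay near the start of the gene. Their median span was 200 bp (middle 50% of peaks 125 to 508 bp, extremes 50 and 9845 bp), against 300 bp over all peaks. They began at a median of 89 bp from the gene start that the authors list, and 729 (52.3%) began within 100 bp of it or before it. In 197 peaks the listed peak began before the gene start, and 290 peaks covered it. The genes were on both strands, 708 peaks on plus and 686 on minus, but the peaks themselves carry no strand, so reads of an overlapping antisense transcript cannot be told apart. One such peak was found on 965 genes, 2 on 123 genes and at least 3 on 50 genes. Of the 1138 genes, 531 also had a peak of their own at the stop codon, 349 in the coding sequence, 334 at the start codon and 315 in the 3' UTR, and 234 (20.6%) had no other peak of their own. The 1138 genes are 12.7% of the 8981 mRNA genes with a peak of their own.

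These peaks were thinly covered. They took 1.40 ± 0.00577% of the peak reads in OAA labelled input, 1.40 ± 0.0473% in OAA labelled IP, 1.41 ± 0.0115% in CON labelled input and 1.38 ± 0.0208% in CON labelled IP (SD, n = 3 each), so the share did not differ between treatments beyond its spread. The libraries labelled input held 19027974 to 21452502 peak reads in OAA and 16491095 to 23010413 in CON, and the libraries labelled IP 4363009 to 4607452 in OAA and 3709352 to 4464058 in CON. In the first CON culture a 5' UTR peak had a median of 55 reads in the library labelled input and 9 in the library labelled IP, where the medians over all peaks were 184 and 50. Of the 1394 peaks, 1251 (89.7%) passed the filter on low counts. The 143 others had a median of 24 reads in their best library, and none was at 0 throughout. Since the libraries labelled input are deeper, a thin peak can pass through them alone, and counts over the 1251 tested peaks are given as description.

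More of the tested 5' UTR peaks lay above the typical peak than below it. The median ratio was 0.57 in OAA and 0.48 in CON, where it was 0.03 over all 24145 tested peaks in either treatment. By edgeR's quasi-likelihood test with Benjamini-Hochberg adjustment over all peaks, 458 of the 1251 were higher in labelled input in OAA (36.6%, against 34.1% of all peaks) and 223 were lower (17.8%, against 34.4%). In CON 436 were higher (34.9%, against 33.9%) and 222 lower (17.7%, against 34.2%). The share of higher peaks was thus near that of all peaks, and the share of lower peaks was smaller than among all peaks. The median 95% interval of the ratio reached 0.81 to either side in OAA and 0.82 in CON, against 0.42 and 0.43 over all peaks. Such wide intervals limit what can be called. Their part in the smaller share of lower peaks was not tested. The split leaned on the scaling: with library size alone, which moved the median of all peaks to -0.24 in OAA and -0.27 in CON, 366 were higher and 290 lower in OAA, and 321 were higher and 292 lower in CON. The 2 treatments called 532 of the peaks in the same direction, 349 higher (27.9%, against 30.3% of all peaks) and 183 lower (14.6%, against 31.0%), and none in opposite directions.

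Set beside the other positions on a transcript, 5' UTR peaks had higher median ratios than start codon, coding and 3' UTR peaks in every culture. The medians of the 5' UTR peaks in single cultures were 0.46, 0.47 and 0.55 in OAA and 0.54, 0.37 and 0.48 in CON, which averaged 0.49 ± 0.0489 and 0.46 ± 0.0882 (SD, n = 3 each). Averaged in the same way, start codon peaks had -0.17 ± 0.14 in OAA and -0.17 ± 0.0841 in CON, and 3' UTR peaks had -0.22 ± 0.0238 in OAA and -0.25 ± 0.0169 in CON. Stop codon peaks came closest among the mRNA classes, at 0.32 ± 0.0339 in OAA and 0.33 ± 0.0262 in CON, and coding peaks stood near 0. In all 6 cultures the 5' UTR median was the higher of these, though in the second CON culture only by the step between 0.33 and 0.37. These medians are descriptions with no test.

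**Figure D1:**
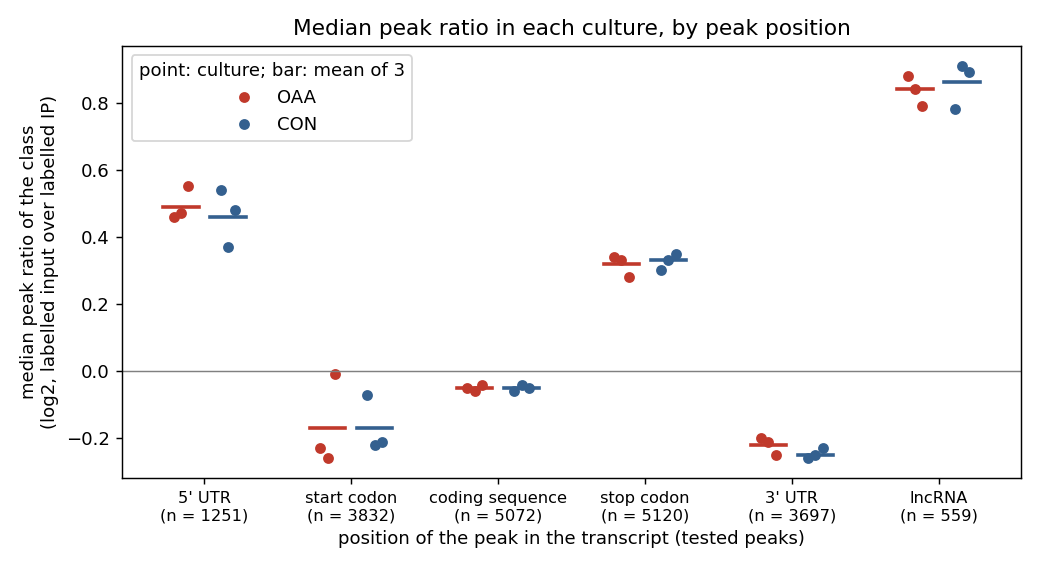
Median peak ratio (log2, labelled input over labelled IP) of the tested peaks of 6 transcript positions, with OAA left of CON; each point is 1 of 3 cultures and each bar their mean. The 5' UTR points lie between 0.37 and 0.55, above the start codon, coding, stop codon and 3' UTR points and below the lncRNA points.

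Within the 5' UTR, the peaks that reach over the gene start had the highest ratios. The 177 tested peaks that began before the listed start had a median of 1.13 in OAA and 1.00 in CON, and 98 (55.4%) were called higher in OAA and 90 (50.8%) in CON. Peaks beginning 0 to 50 bp behind the start had medians of 0.63 in OAA and 0.51 in CON, and those from there to 100 bp 0.29 in OAA and 0.27 in CON. Farther downstream there was no steady fall, with medians in CON of 0.21 up to 300 bp, 0.30 up to 1000 bp, 0.40 up to 10000 bp and 0.31 beyond. A listed gene start need not be the start that these cells use, and the peaks that cover it were wider, with a median span of 407 bp.

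The median ratio differed by width. The narrowest 5' UTR peaks, of at most 100 bp, had median ratios of 0.10 in OAA and -0.04 in CON, and the median in CON was 0.46 up to 200 bp, 0.66 up to 300 bp, 0.88 up to 500 bp, 0.90 up to 1000 bp and 0.64 above that. Stop codon peaks of the same widths had medians in CON of -1.15, -0.94, -0.08, 0.72, 1.25 and 1.01, in the same order, and start codon peaks -0.30, -0.27, 0.01, 0.41, 0.36 and -0.40. The medians thus lay farther apart by width among stop codon peaks than among 5' UTR or start codon peaks, with no test of that difference. A 5' UTR peak of at most 200 bp thus stood about level with or above the typical peak, where a stop codon peak of that width stood below it, and wide stop codon peaks stood above wide 5' UTR peaks. At the limit of the rule, ETV7 with a peak of 9785 bp had ratios of 0.37 in OAA and -0.15 in CON, and GPD2 with 9845 bp had 0.02 and -0.08, while NMT2 with 9767 bp was not tested. Just outside the limit, LGMN with 10021 bp had 0.40 in OAA and -0.22 in CON, ECHDC1 with 10220 bp had 0.14 and -0.15, and TEAD3 with 10379 bp had 0.05 and -0.27.

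**Figure D2:**
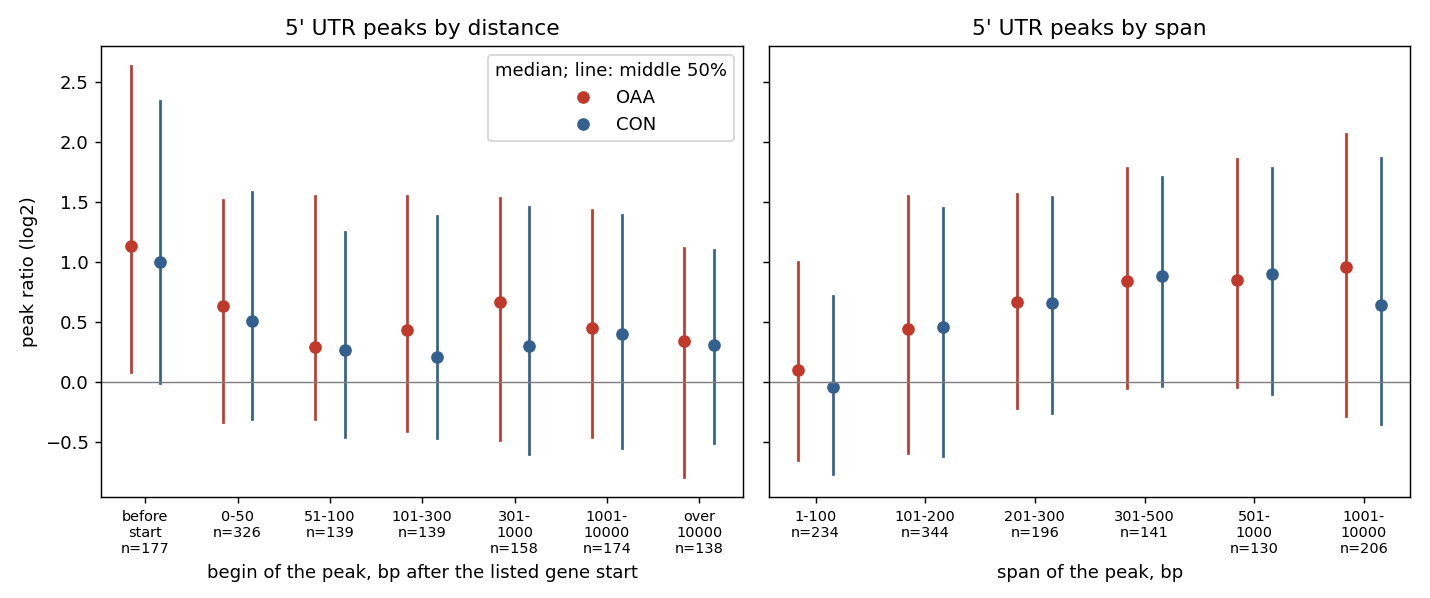
Peak ratio (log2, labelled input over labelled IP) of tested 5' UTR peaks by where the peak begins relative to the listed gene start (left panel) and by its span (right panel), in bp, with OAA left of CON. Points are medians and lines the middle 50% of peaks; the median falls behind the first bin of distance and is lowest for peaks of at most 100 bp.

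The tested 5' UTR peaks were also put into 4 bins by the deposited FPKM of their genes, a level per length and depth. The codes of these FPKM values match those of the libraries labelled IP, which are also the denominator of the ratio, so a high FPKM goes with a low ratio in part by construction, and the medians by bin are a description only. Peaks of genes at 0.0608 to 5.90 FPKM had median ratios of 1.09 in OAA and 0.99 in CON, and those of genes at 33.6 to 2710 FPKM 0.24 in OAA and 0.25 in CON. Over all peaks of their own gene and the same FPKM limits, the medians were 0.69 in OAA and 0.68 in CON in the lowest bin and -0.82 and -0.81 in the highest. Genes with a 5' UTR peak had a median of 14.7 FPKM, against 10.7 FPKM over all genes with a peak of their own.

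Of the 1249 tested 5' UTR peaks with a gene symbol, 357 were called in the same direction in both treatments with at least 5 CPM (read counts scaled to a common library size) in the higher group of CON and no overlap between the labels. Of these, 190 were high (15.2%, against 25.2% of all tested peaks with a symbol) and 167 low (13.4%, against 29.7%), so a smaller share of the 5' UTR peaks met these conditions in either direction. The 10 highest in CON belonged to MACROH2A1, EMC10, PRNP, PEMT, HNRNPK, POLA2, CDC26, an env gene on chromosome X, VPS36 and GNAI2. Most of them were nearly empty in labelled IP and well covered in labelled input. MACROH2A1, which encodes a large histone variant with a macro domain, has its peak at chr2:137622934-137623884, 5 bp from the listed start of a minus-strand gene. It held 37.4, 31.3 and 24.2 CPM in OAA labelled input, against 0.198, 0 and 0.417 CPM in OAA labelled IP. In CON it held 22.5, 25.1 and 34.9 CPM in labelled input, against 0.448, 0.2 and 0 CPM in labelled IP. These are 1718 reads against 3 in OAA and 1543 against 3 in CON, ratios of 154 and 126 with exact 95% counting intervals of 52.5 to 745 and 43.1 to 612.

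GNAI2, the alpha subunit of an inhibitory G protein, had the best covered peak of this set, at chr13:32712642-32716635 on a plus-strand gene, from 3918 bp before the listed start into the gene. It held 175, 156 and 161 CPM in OAA labelled input, against 14.1, 10.2 and 7.29 CPM in OAA labelled IP. In CON it held 131, 129 and 159 CPM in labelled input, against 11.6, 10.2 and 8.95 CPM in labelled IP. The labels were far apart in both treatments, with log2 ratios of 3.96 ± 0.14 (SE) in OAA (adjusted p = 7.01e-21, edgeR's quasi-likelihood test) and 3.76 ± 0.15 in CON (adjusted p = 3.9e-20).

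The others in this group had 1 to 11 reads in their emptier label, apart from env. PRNP, the prion protein gene, had 692 reads against 8 in OAA and 601 against 4 in CON, labelled input first, and the ratio in CON was 36.9 with a counting interval of 14.3 to 136. HNRNPK, an RNA-binding protein of the spliceosome and of translational control, had 560 against 7 in OAA and 544 against 6 in CON, from 9 bp before the listed gene start. For POLA2, a subunit of the DNA polymerase that primes replication, the reads were 522 against 11 in OAA and 508 against 6 in CON. The POLA2 peak of 447 bp begins 406 bp before the listed start. PEMT makes phosphatidylcholine by methylating phosphatidylethanolamine, and its peak of 6279 bp begins 6224 bp before the listed start. VPS36 of the ESCRT-II complex and CDC26 of the anaphase-promoting complex lie 8 bp and 0 bp from their listed starts, with log2 ratios of 5.08 ± 0.55 and 3.51 ± 0.52 in OAA and 3.97 ± 0.48 and 4.13 ± 0.59 in CON (SE). The env peak on chromosome X lies in a gene named after a retroviral envelope, of which the genome holds like copies, so its reads, 77.7 to 178 CPM in CON labelled input, cannot be assigned to 1 copy with certainty.

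The 10 lowest were well covered in both labels. Among them were those of PPIA, CCNG1, SLC20A1, GPBP1, GPBP1L1, DYNC1I2, SLC4A4, ATF4 and AVPI1. PPIA, cyclophilin A, had 15.7, 17.3 and 19.7 CPM in OAA labelled input, against 128, 118 and 116 CPM in OAA labelled IP. In CON it had 28.5, 18.1 and 16.5 CPM in labelled input, against 99.0, 104 and 125 CPM in labelled IP. The log2 ratio was -2.78 ± 0.15 in OAA and -2.37 ± 0.14 in CON (SE), the groups did not overlap, and the peak of 50 bp belongs to a gene at 1800 FPKM in OAA and 1720 FPKM in CON that has many processed copies in mammals. SLC20A1, a sodium-dependent phosphate transporter, had 9.89, 10.8 and 12.4 CPM in OAA labelled input, against 43.0, 46.7 and 39.2 CPM in OAA labelled IP, with the same log2 ratio of -1.96 ± 0.16 in OAA and in CON. CCNG1 encodes cyclin G1, a p53 target, and had -2.54 ± 0.20 in OAA and -2.06 ± 0.20 in CON. The related GC-rich promoter binding proteins GPBP1 and GPBP1L1 each had a peak with a ratio of -1.88 in CON, with SEs of 0.12 and 0.14. These peaks differ in span, 1354 bp and 175 bp. The low ratio of GPBP1 holds for this peak only. The mean ratio over all 5' UTR peaks of GPBP1 with a mean of at least 5 CPM in a group was -0.765, so the gene also has a higher one. DYNC1I2, a dynein intermediate chain, had -1.53 ± 0.17 in OAA and -1.82 ± 0.17 in CON, and the bicarbonate transporter SLC4A4 had -1.58 ± 0.20 and -1.75 ± 0.21.

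**Figure D3:**
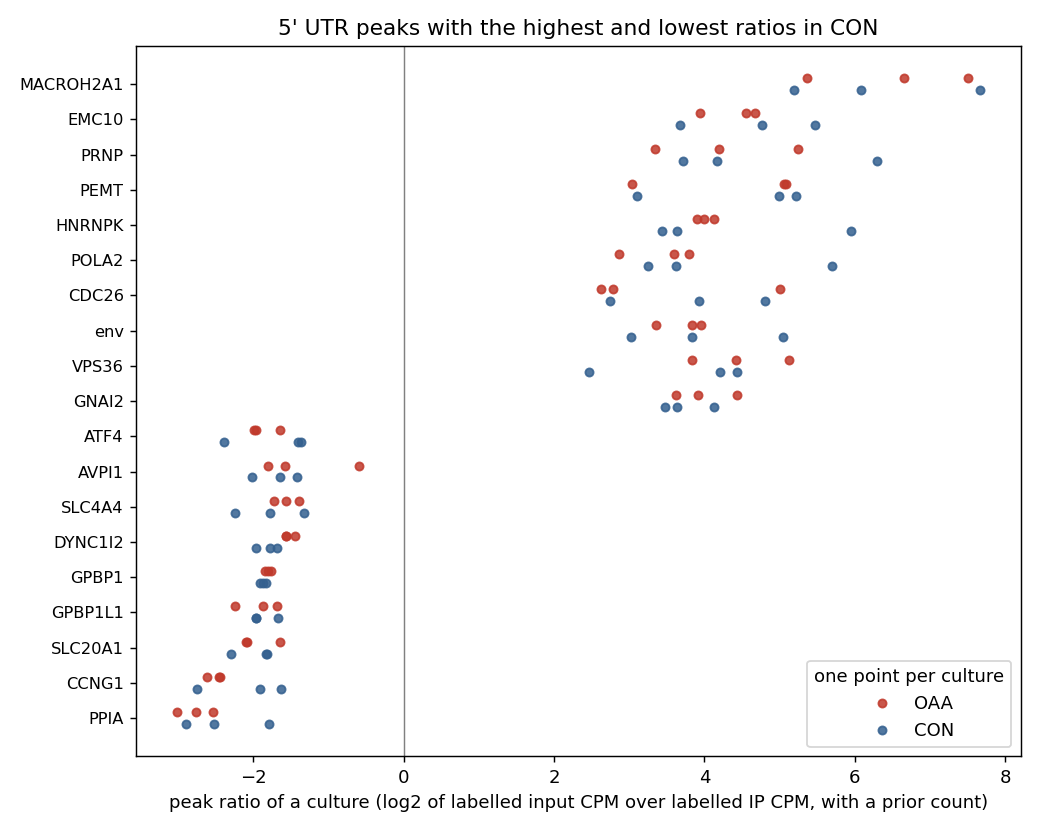
Peak ratio of each culture (log2 of labelled input over labelled IP CPM, with a prior count that pulls in peaks with few reads) for the named 5' UTR peaks among the 10 highest and the 10 lowest in CON, OAA above CON. Points of peaks that are nearly empty in labelled IP, such as MACROH2A1 and PRNP, spread over several log2 units between cultures, while GPBP1 and SLC20A1 lie close together.

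Stress-response genes whose translation is known from other mammals to pass through upstream open reading frames in the 5' UTR had 5 such peaks, all tested, on 5 of the 19 listed genes with a peak (26.3%). None of the 5 was called higher, and 3 were called lower in OAA (60.0%, against 34.4% of all peaks and 17.8% of 5' UTR peaks) and 4 in CON (80.0%, against 34.2% and 17.7%). With 5 peaks these shares rest on few counts. Their median ratio was -0.64 in OAA and -1.45 in CON, against -0.20 over all 36 peaks of the listed genes in CON. ATF4, the transcription factor of the integrated stress response, has its peak at chr5:8744894-8745223 on a minus-strand gene, 2 bp from the listed start. It held 14.3, 13.1 and 16 CPM in OAA labelled input, against 57.4, 51.2 and 50.2 CPM in OAA labelled IP. In CON it held 21.1, 14.6 and 11.7 CPM in labelled input, against 54.9, 38.8 and 62.1 CPM in labelled IP. Its log2 ratio was -1.87 ± 0.17 in OAA (adjusted p = 4.15e-11, edgeR's quasi-likelihood test) and -1.71 ± 0.17 in CON (adjusted p = 3.32e-10). The phosphatase subunits that reset this response, PPP1R15A and PPP1R15B, had -1.25 ± 0.30 and -0.64 ± 0.28 in OAA and -1.45 ± 0.31 and -0.78 ± 0.27 in CON. IBTK had -0.52 ± 0.42 in OAA, which did not pass, and -1.54 ± 0.43 in CON, and the kinase EIF2AK3 (PERK) did not pass in either treatment, with 0.46 ± 0.45 in OAA and 0.15 ± 0.45 in CON.

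Among translation initiation factors the calls were few. Of 6 tested peaks on 6 of 35 listed initiation factor genes with a peak, 2 were higher (33.3%, against 34.1% of all peaks) and 1 lower in OAA, and 3 were higher, against 33.9% of all peaks, and 0 lower in CON. Their median was 1.42 in OAA and 1.83 in CON, where all 78 peaks of the list had -0.96 in CON. The peaks of EIF4G1, EIF4G3 and PABPC1 had only 3 to 7 reads in the libraries labelled IP of a treatment. They could pass the filter on low counts only through labelled input, where they are high, so this contrast of medians is a description only. EIF4G2, which drives cap-independent initiation, held 31.5, 36.3 and 33.6 CPM in OAA labelled input, against 12.9, 8.13 and 8.75 CPM in OAA labelled IP. Its log2 ratio was 1.76 ± 0.21 in OAA and 1.70 ± 0.21 in CON (adjusted p = 7.36e-09 and 1.28e-08, edgeR). The scaffolds EIF4G1 and EIF4G3 had thin peaks, with 2.63 ± 0.72 and 1.44 ± 0.78 in OAA and 2.94 ± 0.86 and 2.29 ± 0.82 in CON, of which EIF4G3 in OAA did not pass. EIF3A, the largest subunit of the factor eIF3, had a lower peak in OAA, -0.87 ± 0.33 (adjusted p = 0.02, edgeR), and -0.42 ± 0.33 in CON, which did not pass. Most of the peaks of EIF4G2 and EIF3A lies before the listed gene start. They span 1207 bp and 6736 bp and begin 1172 bp and 6693 bp before it.

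Cytosolic ribosomal protein mRNAs, whose 5' UTRs are short and carry a pyrimidine tract, had 11 such peaks on 8 of 63 genes with a peak (12.7%). In OAA 3 were higher (27.3%, against 34.1% of all peaks) and 1 lower (9.09%, against 34.4%). In CON 4 were higher (36.4%, against 33.9%) and 2 lower (18.2%, against 34.2%), so the higher shares were near those of all peaks. The median was 0.93 in OAA and 0.54 in CON, against -1.38 over the 87 peaks of the list in CON. The 11 peaks include those of an RPL9 gene at only 0.192 FPKM in OAA and 0.342 FPKM in CON. These had 6 to 19 reads in the libraries labelled IP of a treatment, and 1 of them is among those called higher in OAA. RPS3A, of the small subunit, was the clearest low member, with 8.70, 11.6 and 10.3 CPM in OAA labelled input, against 37.0, 25.2 and 31.7 CPM in OAA labelled IP. RPL35A, of the large subunit, was slightly high, at 0.45 ± 0.12 in OAA and 0.56 ± 0.13 in CON. Processed copies of ribosomal protein genes are common, so reads of these peaks may be shared between copies.

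Heat shock proteins and chaperones had 4 peaks, 3 of them tested, with 2 higher (66.7%, against 34.1% of all peaks in OAA and 33.9% in CON) and 0 lower in either treatment. CALR, the chaperone calreticulin, held 28.6, 27.4 and 27.4 CPM in OAA labelled input, against 13.3, 8.74 and 7.29 CPM in OAA labelled IP, with ratios of 1.5 ± 0.19 in OAA and 1.17 ± 0.19 in CON. DNAJB9, a chaperone of the endoplasmic reticulum, had 1.75 ± 0.51 in OAA and 1.63 ± 0.51 in CON. Histone and chromatin enzymes had 13 tested peaks, of which 4 were higher (30.8%, against 34.1% of all peaks) and 0 lower in OAA and 7 were higher (53.8%, against 33.9%) and 2 lower (15.4%, against 34.2%) in CON. The medians were 0.55 in OAA and 0.71 in CON, against 0.10 over the 230 peaks of the list in CON. Among those called higher in CON, the peaks of SETD1A, CHD7, KDM3A and CHD1 had only 1 to 11 reads in the libraries labelled IP of a treatment. They could pass the filter on low counts only through labelled input, where they are high, so these shares and medians are a description only. KMT2D, a histone H3 lysine methyltransferase, carried a high and a neutral peak some kilobases apart, at 1.53 ± 0.14 and -0.55 ± 0.27 in OAA and at 1.43 ± 0.14 and -0.38 ± 0.27 in CON. SETD1A, of the same enzyme family, had 286 reads in labelled input against 11 in labelled IP in OAA, and 321 against 6 in CON. BRD2, a reader of acetylated histones, had the best covered peaks of this list, and 1 of them was high at 0.55 ± 0.10 in OAA and 0.71 ± 0.11 in CON while its neighbour stood at -0.05 ± 0.09 and -0.02 ± 0.09.

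Short-lived transcription factor mRNAs had 6 tested peaks, 3 higher, against 34.1% of all peaks, and 0 lower in OAA and 2 higher (33.3%, against 33.9%) and 0 lower in CON. KLF4 held 22.9, 15.5 and 13.5 CPM in OAA labelled input, against 7.52, 5.89 and 6.25 CPM in OAA labelled IP, with ratios of 1.40 ± 0.24 in OAA and 1.36 ± 0.24 in CON. One peak of ATF3 passed in CON at 2.23 ± 0.55 and not in OAA at 0.86 ± 0.48. Another ATF3 peak, of 50 bp, passed in neither, at 1.33 ± 0.84 in OAA and 1.13 ± 0.85 in CON. The lipid list had 3 tested peaks, 2 higher (66.7%, against 34.1% of all peaks in OAA and 33.9% in CON) and 1 lower (33.3%, against 34.4% and 34.2%) in either treatment. The acyltransferases of glycerolipid synthesis differed, GPAT3 being low at -1.55 ± 0.19 in OAA and -1.40 ± 0.19 in CON, and AGPAT1 high at 3.86 ± 0.59 in OAA and 3.41 ± 0.55 in CON. The AGPAT1 peak was thin in labelled IP, with 384 reads against 7 in OAA and 450 against 10 in CON, labelled input first. These are ratios of 14.7 and 11.0, with counting intervals of 7.07 to 36.8 and 5.95 to 23.2.

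The machinery of the mark itself had 3 such peaks. YTHDF3, a cytoplasmic reader of m6A, held 17.8, 11.7 and 16.3 CPM in OAA labelled input, against 22.8, 27.8 and 22.9 CPM in OAA labelled IP, in a peak of 2224 bp that begins 9 bp from the listed start. Its ratio was -0.69 ± 0.17 in OAA and -1.05 ± 0.17 in CON. HNRNPC, which binds RNA that m6A has unfolded, had 0.55 ± 0.21 in OAA (adjusted p = 0.023, edgeR) and 0.39 ± 0.22 in CON, which did not pass. HNRNPA2B1 passed in neither, at 0.29 ± 0.15 and -0.03 ± 0.15, in a peak of 498 bp that begins 437 bp before the listed start. The writers METTL3 and METTL14, the erasers FTO and ALKBH5, the reader YTHDF2 and the proteasome subunit PSMD3 had 0 peaks wholly in the 5' UTR, although each had 2 or 4 peaks of its own.

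Ubiquitin ligases and deubiquitinases had the most of the listed groups, 17 tested peaks on 14 of 56 genes with a peak (25.0%), and they fell on both sides. In OAA 5 were higher (29.4%, against 34.1% of all peaks) and 8 lower (47.1%, against 34.4%). In CON 6 were higher (35.3%, against 33.9%) and 8 lower (47.1%, against 34.2%), and the median was -0.52 in both, against -0.33 over the 143 peaks of the list in CON. UBA1, the enzyme that starts the ubiquitin cascade, held 26.8, 27.5 and 24.5 CPM in OAA labelled input, against 5.74, 6.50 and 5.63 CPM in OAA labelled IP, at 2.14 ± 0.21 in OAA and 1.92 ± 0.21 in CON. FBXW7, the substrate receptor of a ligase for cyclin E and MYC, was high as well, at 1.75 ± 0.17 and 1.78 ± 0.17. UBB, which encodes ubiquitin in tandem repeats, was low at -1.55 ± 0.19 in OAA and -1.48 ± 0.19 in CON, as was PSMD14, the deubiquitinase of the proteasome lid, at -1.13 ± 0.11 and -1 ± 0.11. The 3 peaks of USP9X ran from -1.76 to -1.03 in OAA and from -1.31 to -0.52 in CON.

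Several 5' UTR peaks of 1 gene did not move as a block. Among 152 genes with at least 2 tested peaks, the ratios in CON spanned a median of 1.52 on the log2 scale within the gene, and 32 genes had peaks called in both directions. Thin coverage widens such a range, since the median 95% interval of these ratios in CON reached 0.82 to either side. Neither value was computed for other peak classes, so they are not shown to be particular to the 5' UTR. SYTL2, a Rab27 effector in granule transport, had 7 peaks, the most of any gene. Its widest peak, 4672 bp, held 486, 450 and 455 CPM in OAA labelled input, against 102, 99.8 and 112 CPM in OAA labelled IP, with a ratio of 2.15 ± 0.08 in OAA and 2.16 ± 0.08 in CON. A neighbouring peak of 350 bp had -0.58 ± 0.26 in OAA and -0.51 ± 0.26 in CON. TACC2, a centrosomal coiled-coil protein, had 6 peaks within 4700 bp with ratios of -1.36 to 1.09 in OAA and -0.94 to 1.05 in CON. An env gene on chromosome 17 had 6 peaks within 8075 bp, at -1.62 to 0.82 in OAA and -1.47 to 0.91 in CON, and PDZD2 and the transcriptional corepressor BCOR had 6 and 5 peaks. Peaks of 1 gene share its transcripts and are not independent of each other.

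Set against the stop codon peaks of the same gene, 5' UTR peaks were neither uniformly high nor uniformly low. In 193 genes both kinds of peak reached a mean of at least 5 CPM in 1 or more of the 4 groups. Labelled input alone could meet this limit, as for the 5' UTR peaks of EMC10 and AGPAT1, so the counts are a description only. The 5' UTR ratio exceeded the stop codon ratio in all 6 cultures in 59 of these genes (30.6%) and lay below it in all 6 in 72 (37.3%). Start codon peaks against stop codon peaks of the same gene gave 29.4% and 40.0% of 1112 genes, and coding peaks against stop codon peaks 24.1% and 49.6% of 1276 genes, so the 5' UTR shares were close to those of the start codon. Against 3' UTR peaks of the same gene, 5' UTR peaks were higher in all 6 cultures in 56 of 121 genes (46.3%) and lower in 25 (20.7%). Start codon peaks against 3' UTR peaks gave nearly the same shares, 44.1% and 23.8% of 522 genes, and coding peaks 31.5% and 34.9% of 559 genes. The order of the counts against the stop codon depended on the limit of 5 CPM. When genes with at least 1 CPM in a group were let in, 141 were higher than their stop codon peak and 106 lower. Start codon and coding peaks were not counted at that limit. The closeness of the shares to those of the start codon was thus seen at 5 CPM only.

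The genes at both ends of this comparison had opposite orders of the 2 kinds of peak. EMC10, a subunit of a complex that inserts membrane proteins, had 349 reads in OAA labelled input against 2 in OAA labelled IP in its 5' UTR peak, and 302 against 1 in CON. This peak of 429 bp begins 378 bp before the listed gene start, so its reads may come from another transcript. Its 2 stop codon peaks had ratios of -1.51 ± 0.20 and -1.07 ± 0.21 in OAA, and the 5' UTR minus stop codon difference was 5.86 ± 0.64 on the log2 scale (SD over 6 cultures). FKBP5, a co-chaperone of steroid receptors, had 4.45, 6.78 and 6.35 CPM in OAA labelled input against 0.396, 0.61 and 0 CPM in OAA labelled IP in the 5' UTR, while its stop codon peak had 229, 244 and 230 CPM against 321, 303 and 332 CPM. WDTC1, AGPAT1 and TRAPPC3, of a complex that tethers transport vesicles, had the same order, with differences of 5.25 ± 1.42, 4.63 ± 1.74 and 4.05 ± 0.68. FAM53B had the reverse, with 9.63, 5.63 and 7.09 CPM in OAA labelled input against 17.6, 13 and 17.1 CPM in OAA labelled IP in the 5' UTR and 311, 304 and 227 CPM against 43.4, 43.1 and 38.6 CPM at the stop codon, a difference of -3.94 ± 0.29. MBD5, C11orf24, PLEKHA1, which binds phosphoinositides, and the ubiquitin ligase RNF26 followed at -3.78 ± 2.10, -3.25 ± 0.51, -3.05 ± 1.10 and -3.00 ± 0.45.

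**Figure D4:**
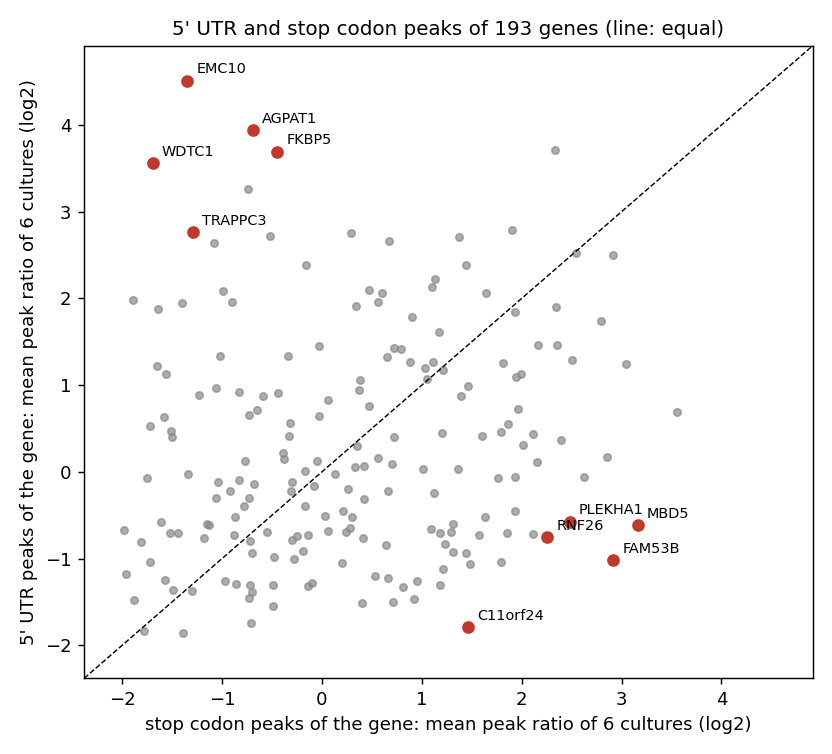
Mean peak ratio over 6 cultures (log2, labelled input over labelled IP) of the 5' UTR peaks against that of the stop codon peaks for 193 genes with at least 5 CPM in both; the dashed line marks equal ratios. The named genes, in red, are the 5 farthest above and the 5 farthest below the line.

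No 5' UTR peak passed the test for an effect of OAA. For the change of the ratio, OAA minus CON, edgeR's quasi-likelihood test called 0 of 1251 peaks (0.0% of all peaks), with a smallest adjusted p of 0.999; 78 (6.24%) had an unadjusted p under 0.05, against 4.46% of all peaks, and DESeq2 called 0 with 89 of 1394 under 0.05 unadjusted. Between the libraries labelled input, edgeR called 0 (0.00828% of all peaks higher and 0.00414% lower), with 79 (6.31%) under 0.05 unadjusted against 5.60% of all peaks, and DESeq2 called 1. Between the libraries labelled IP, edgeR called 0 (0.0% of all peaks), with 70 (5.60%) against 4.32%, and DESeq2 called 0 with 83 of 1394 under 0.05 unadjusted. The median 95% interval of the change reached 1.17 log2 units to either side, against 0.60 over all peaks. This interval is for a single peak without adjustment. With adjustment over all peaks, changes larger than that could also be missed in a typical 5' UTR peak. In the authors' deposited table of peaks, 73 of the 1394 peaks (5.24%) had a p under 0.05, against 2.69% of all peaks, and the smallest adjusted p was 1.

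The peaks named here with small p did not pass by edgeR or DESeq2. For the change of the ratio they included, in order of p, PTPRG, USP54, PRXL2A, FLRT2, BCOR, PTP4A3, CASP6, BCOR again and ANKH, with log2 changes from -1.23 to 1.5. PTPRG, a receptor tyrosine phosphatase, held 6.68, 4.05 and 5.83 CPM in OAA labelled input, against 2.36, 2.09 and 4.06 CPM in CON labelled input. Its ratio was -0.28 ± 0.31 in OAA and -1.78 ± 0.31 in CON, a change of 1.5 ± 0.44 (unadjusted p = 0.00174 by edgeR, adjusted p = 0.999). PTP4A3, a prenylated phosphatase, held 5.69, 7.77 and 7.43 CPM in OAA labelled input, against 2.72, 3.64 and 3.38 CPM in CON labelled input, with an adjusted p of 0.427 by edgeR. The executioner caspase CASP6 held 4.30, 4.05 and 4.06 CPM in OAA labelled input, against 8.85, 7.88 and 4.25 CPM in CON labelled input, so that 1 CON library overlapped the OAA libraries. Also with a small p between these libraries were MFF, which recruits the fission machinery to mitochondria, at -0.69 ± 0.18, and the dynein light chain DYNLL2 at 0.66 ± 0.20. The DYNLL2 peak of 2091 bp begins 2077 bp before the listed start. The 2 named peaks of BCOR had changes of 1.23 ± 0.43 and -1.07 ± 0.38, in opposite directions.

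Between the libraries labelled IP, a peak of another env gene came first. At chr3:10663073-10663297 it held 840, 872 and 680 CPM in OAA labelled IP, against 596, 609 and 545 CPM in CON labelled IP, which do not overlap, and 188, 176 and 231 CPM in OAA labelled input, against 207, 194 and 153 CPM in CON labelled input, which do. The log2 difference between the libraries labelled IP was 0.45 ± 0.10, with an adjusted p of 0.374 by edgeR, and 0.55 with an adjusted p of 0.0158 without the third OAA library labelled IP. LEF1, a transcription factor of Wnt signalling, held 11.7, 13.4 and 12.9 CPM in OAA labelled IP, against 17, 20 and 16.4 CPM in CON labelled IP, with an adjusted p of 1 by edgeR. The poly(A)-binding protein PABPC4 held 28.1, 35.2 and 40.9 CPM in OAA labelled IP, against 18.6, 27.4 and 22 CPM in CON labelled IP. DNTTIP1, of a histone deacetylase complex, had 0 reads in OAA labelled IP, against 6 in CON labelled IP, with an adjusted p of 1 by edgeR.

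**Figure D5:**
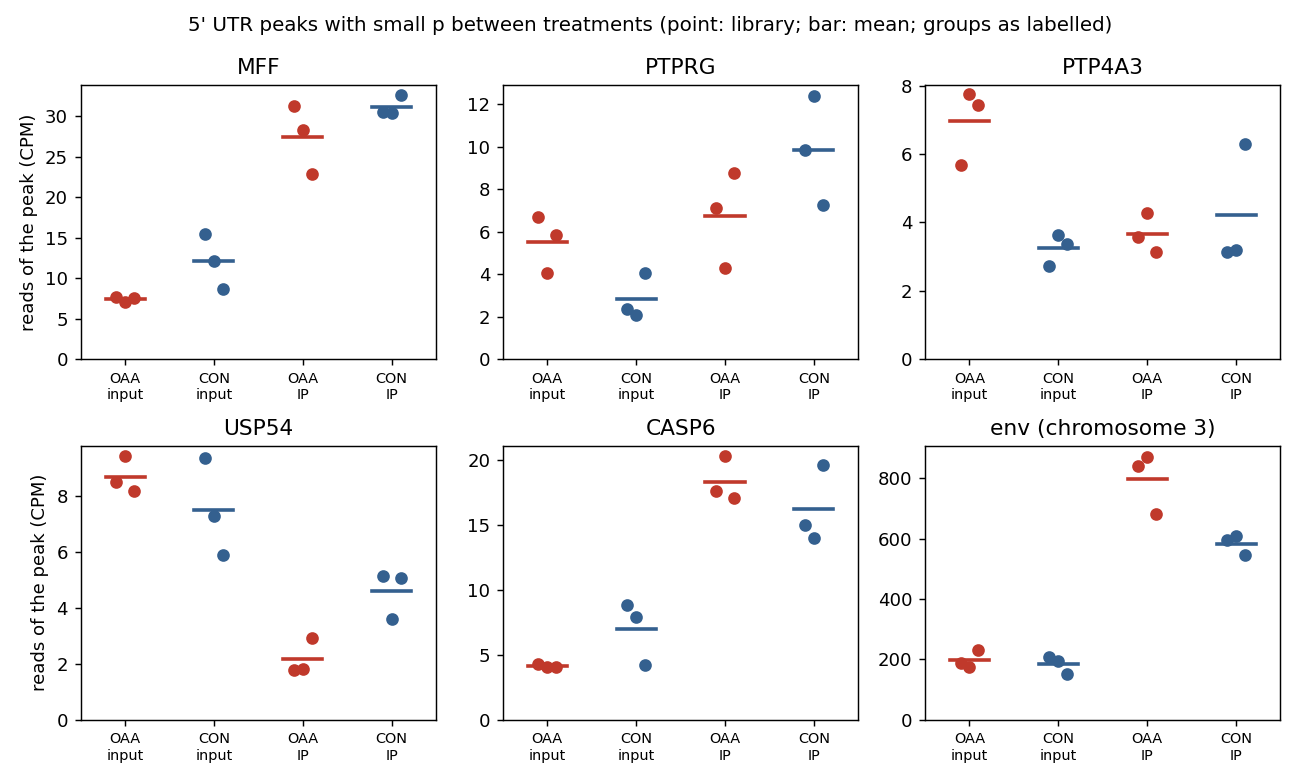
CPM of 6 peaks with small p between treatments, in OAA labelled input, CON labelled input, OAA labelled IP and CON labelled IP; points are libraries and bars group means, on axes that start at 0. MFF and PTP4A3 do not overlap between treatments in labelled input, and the env peak on chromosome 3 does not overlap in labelled IP.

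No gene that carries such a peak passed the test for a difference in FPKM either. By their codes, the FPKM values belong to labelled IP. If the titles hold, they stand for antibody-bound RNA, and the differences and cell markers below are not mRNA levels. They can be read as mRNA levels only if the titles are exchanged, which was not tested. Of the 1138 genes, 1073 were tested on log2(FPKM + 1), limma called 0 (0.0% of all genes tested), and 30 (2.80%) had an unadjusted p under 0.05, against 3.31% of all 10763 genes tested. The log2 differences lay between -0.44 and 0.37 with a median of -0.02, and in bulk RNA fewer cells of a kind and less RNA per cell cannot be told apart. GSTA1, a glutathione transferase, had the smallest p, with 15.5, 14.6 and 13.4 FPKM in OAA, against 17.7, 21.2 and 21.4 FPKM in CON, values that do not overlap (limma log2 difference -0.44, 95% interval -0.63 to -0.25, unadjusted p = 0.000536, adjusted p = 1). NQO1, a quinone reductase of the antioxidant response, stood at 74.9 ± 4.07 FPKM in OAA and 85.5 ± 5.00 FPKM in CON, and CALR at 462 ± 6.35 FPKM in OAA and 427 ± 5.50 FPKM in CON (SD, n = 3 each). As a check of the cells, 4 of 4 epithelial markers in the table were at 1 FPKM or more, led by KRT8 at 396 FPKM, but only 1 of 7 enterocyte markers was, the sucrase gene SI at 12.8 FPKM, and 0 of 3 fibroblast and 0 of 2 leukocyte markers were. Both endothelial markers were above 1 FPKM, CDH5 at 3.78 FPKM, and their sum was 4.86 to 5.63 FPKM in OAA and 4.53 to 5.52 FPKM in CON, whose part in the results was not tested.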

How the data were processed

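Peak counts were those the authors deposited, whole-number read counts of 12 libraries in merged peaks. Per the file headers the same table gives a log2 ratio for each treatment and, for their difference, a p-value before and after adjustment. The authors' deposited gene table holds FPKM of 6 libraries. Bowtie2 and HISAT2 are named in the submitters' processing notes. Version, role and genome build: not given in the sources used here. Listed peak starts were read as 0-based and are printed 1-based, in the build of the files; of 8992 genes matched by symbol to the RefSeq annotation of Sscrofa11.1, 99.3% overlapped their listed span. No unmatched sample columns were found (0). Of the 1138 genes, 1027 were named by the reference gene list and 109 by the deposited symbols alone, and 2 have no name. Sequences of the peaks were not analysed here.

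A peak listed under several genes was used once. Counts went through the quasi-likelihood test of edgeR 4.0.16 in R 4.3.3 after TMM scaling and its default filter on low counts, all 12 libraries in 1 fit, with Benjamini-Hochberg adjustment over the 24145 peaks tested and a threshold of 0.05. CPM were computed from peak reads after TMM. Genes reaching 1 FPKM in 3 libraries were tested on log2(FPKM + 1) with limma-trend (limma 3.58.1), a scale that understates differences of low genes. Alternatives were DESeq2 1.42.0, library size alone, no filter, each library left out, a replicate block, a pseudocount of 0.1, peaks of at most 1000 bp, and at least 1 CPM for comparisons within genes. Scripts were tested on simulated data. For some of the peaks with few reads in a label, ratios carry exact 95% intervals, which cover counting error only.

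Members, gene lists and tests were chosen with earlier results of these data known. The text names, for ratios, the 10 highest and lowest peaks called alike in both treatments, with a symbol, at least 5 CPM in the higher group and no overlap between labels; for treatment effects, where fewer than 5 were called, the 10 of smallest p, of which a part is printed, since some selected items are not reported here; from each list, chiefly the 4 of smallest p in CON; the 5 genes with most peaks; 5 genes per direction against the stop codon peak; and METTL3, METTL14, FTO, ALKBH5, YTHDF2 and PSMD3. Same-numbered libraries did not deviate together (correlations from -0.0588 to 0.0563), so the main tests did not pair samples by number. The ratios of single cultures did set same-numbered libraries of a treatment against each other. The correlations give no ground for that pairing. Spreads and counts over cultures depend on it and are descriptions only. All samples carry 1 batch label.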

Additional observations from a re-analysis of the deposited data

How the results depend on the processing

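The calls for the ratio kept their size within 1.5 times under every alternative run: 655 in OAA and 635 in CON with the replicate block (culture), 752 and 726 without a filter (529 higher and 223 lower in OAA, 504 higher and 222 lower in CON), and 516 to 677 in OAA and 515 to 640 in CON with a library left out, where leaving out a library labelled input also cut the peaks tested to between 941 and 955. DESeq2 called 761 in OAA and 741 in CON. For the effect of OAA, the count of 0 became 1 with DESeq2 in labelled input and 1 without OAA_labelled_IP replicate 3 in labelled IP (env on chromosome 3), and stayed 0 in every other alternative of the 4 treatment comparisons; leave-one-out counts were 0 throughout for the change of the ratio, labelled input and FPKM, and 0 to 1 for labelled IP. With the replicate block, 0 peaks were called for the change, for labelled input and for labelled IP, and 0 genes for FPKM. The distance of the 5' UTR median from that of all peaks was 0.46 in OAA and 0.44 in CON, and 0.40 in OAA with peaks of at most 1000 bp; leaving out a culture gave 0.45 to 0.47 in OAA and 0.40 to 0.48 in CON. With at least 1 CPM, 141 genes in place of 59 were above their stop codon peak and 106 in place of 72 below it. Above their 3' UTR peak were 130 in place of 56, and below it 27 in place of 25. The cause was not tested. Of 850 values of named peaks and genes under alternatives, 848 kept their direction and side of the threshold, 2 came to pass it and 0 reversed. Depth in the libraries labelled IP limits what could be seen.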
